A study of Oryza sativa with 12 samples.

Results

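VP1 and 3 genes of late embryogenesis, EM, RAB21 and LEA19, were followed across rice panicles of IR64 and Nagina 22 (N22), each grown in the open and under heat. These 4 genes are measured by 5 probe sets, of 57381 probe sets and 17905 annotated genes on the array. They were picked by name from the array annotation and the synonyms of a gene table after their values across the groups had been seen, so their levels and differences are described here without a test. All 5 probe sets passed the filter on low values. Of the oil body and embryo genes listed to check for embryo tissue, only GLB, matched by a synonym, had a probe set. Whether it is the embryo globulin gene is not settled, so the embryo could not be read apart from the chosen genes themselves. For GLB, N22 minus IR64 in control was -1.76 ± 0.07 on the log2 scale (standard error, SE, limma adjusted p = 2.09e-09). With heat in IR64 its difference was -0.53, which also passed an adjusted p under 0.05.

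VP1 (LOC4324314) is a transcription factor of the B3 class, the rice counterpart of maize Viviparous1 and Arabidopsis ABI3, and in cereal seeds it acts together with the hormone abscisic acid (ABA) to drive maturation. EM (LOC4338499) encodes a group 1 late embryogenesis abundant (LEA) protein that accumulates in maturing embryos and is a known target of VP1. RAB21 (LOC4350454), also called RAB16A, encodes a dehydrin, a LEA protein of group 2, and LEA19, also called LEA3-1, encodes a LEA protein of group 3. Both are known to respond to ABA and to loss of water in vegetative tissue as well as in seeds.

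Each of the 4 combinations of cultivar and treatment was measured on 3 Affymetrix arrays, 12 in all. The labels describe IR64 as susceptible and N22 as tolerant to heat, and sowing was staggered to bring their flowering together. Heated plants spent 8 days from booting in a facility 5 °C warmer than the surrounding air, and control plants grew in the adjacent open field, so heat and growing site changed together. All panicles came from main tillers, and the sources used here do not give the number of plants per sample. The labels do not say whether replicates were separate plants. The p-values below measure only the spread between these samples, and that spread may be technical.

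Levels are the authors' log2 values from GCRMA, a method that removes background by probe sequence and normalises across arrays, and they are compared only within a probe set. The background level was set at 4.20, the brightest reading among 64 reporter probe sets without a match in rice. Between 33.2% and 34.5% of probe sets lay above it on each array, and replicates of a group correlated at 0.997 to 0.998. Where a whole group lay at or under background, a fold is a lower bound ("at least"), and where both groups did, none is given. The panicle is a mixture of tissues, so fewer cells of a type and less RNA per cell cannot be told apart in any of these values. Whether the probes match the sequences of IR64 and N22 equally well was not tested.

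VP1 was bright in N22 and at background in IR64. In N22 control panicles its log2 level was 10.11, 9.96 and 9.92 on the 3 arrays (SD 0.10, n = 3). In heated N22 panicles it was 8.75, 9.21 and 8.98. The heated arrays thus lay below every N22 control array, by 1.02 ± 0.16 on the log2 scale (SE of the fit) or 2.03-fold. In IR64, VP1 read 3.66, 3.25 and 3.01 in control and 3.25, 3.23 and 3.23 under heat. All 6 IR64 values were at background and the groups overlapped, so no response of VP1 to heat was measurable there. The cultivar difference was at least 55.5-fold in control and at least 27.4-fold under heat.

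EM showed the same order of groups at a wider span. Its log2 level in N22 control was 12.09, 12.14 and 12.03, a mean of 12.09 ± 0.06 (SD, n = 3). Under heat it was 11.18, 11.38 and 11.27, again below every control array of N22. The gap was 0.81 ± 0.11 (SE), or 1.76-fold. In IR64, EM read 2.98, 3.20 and 3.36 in control and 3.10, 3.35 and 3.35 under heat, all at background and overlapping. EM was therefore at least 237-fold higher in N22 than in IR64 in control and at least 135-fold higher under heat.

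**Figure D1:**
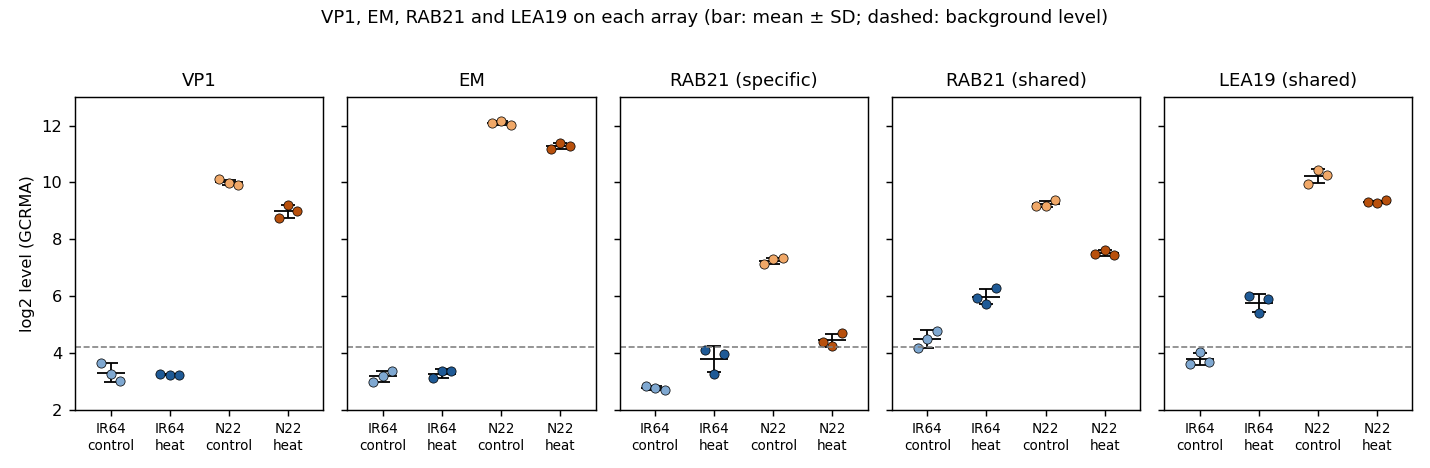
Log2 level (vertical axis) of the 5 probe sets on the 3 arrays of each group (points), with mean ± SD (bars) and the background level of 4.20 (dashed line). All IR64 arrays are at background for VP1 and EM, while LEA19 and the shared RAB21 probe set are higher in IR64 heat than in IR64 control, and all 5 are lower in N22 heat than in N22 control.

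RAB21 differed from VP1 and EM in how far below control it stood under heat in N22 and in what it did in IR64. It has 2 probe sets. The first is designed to match RAB21 alone, and the second is of the array's shared type, which can also match related transcripts. The specific probe set read 7.12, 7.29 and 7.33 in N22 control and 4.37, 4.23 and 4.71 in N22 heat. All heated N22 arrays came down to just above background, 2.81 ± 0.20 (SE) below control or 7.01-fold. Of the 29803 probe sets kept for testing, 59 others had as large a negative difference in N22. That number was 380 for the shared RAB21 probe set, 1739 for VP1, 2306 for LEA19 and 2862 for EM. The genes were chosen with these values seen, so nothing is read from the ranks.

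In IR64 the specific RAB21 probe set read 2.84, 2.75 and 2.69 in control and 4.09, 3.25 and 3.97 under heat. Every heated value was above every control value, but all 6 were at background, so no fold is given. RAB21 was at least 8.25-fold higher in N22 than in IR64 in control. Under heat that bound shrank to 1.18-fold, although the N22 and IR64 arrays still did not overlap.

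The shared RAB21 probe set lay above background in IR64 as well. Its log2 level was 4.16, 4.50 and 4.78 in IR64 control, with 1 array at background, and 5.94, 5.73 and 6.27 in IR64 heat. The IR64 groups did not overlap, and heat stood 1.496 ± 0.17 (SE, log2) above control, or 2.82-fold. In N22 it read 9.18, 9.18 and 9.37 in control and 7.47, 7.63 and 7.45 under heat. The N22 difference thus ran the other way, with heat 1.73 ± 0.17 below control or 3.32-fold. N22 exceeded IR64 27.2-fold in control and 2.91-fold under heat.

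LEA19 also differed in opposite directions in the cultivars. Its only probe set is of the shared type. In IR64 it read 3.62, 4.01 and 3.69 in control, all at background, and 6.01, 5.39 and 5.88 under heat, all above it. Heat thus stood at least 2.95-fold above control. In N22 it read 9.94, 10.44 and 10.27 in control and 9.31, 9.28 and 9.37 under heat, with every heated array lower. The N22 difference was -0.90 ± 0.18 (SE), or 1.87-fold. N22 exceeded IR64 at least 64.6-fold in control and 11.8-fold under heat.

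Each of the 5 probe sets had the same order of groups, with N22 control highest, N22 heat next and the IR64 groups below. For RAB21 and LEA19 the IR64 groups were ordered too, heat above control, while for VP1 and EM they did not differ beyond their spread. In IR64 the chosen genes thus split: the seed regulator and its embryo target were at background in both groups, and the RAB21 and LEA19 probe sets were higher under heat, the specific RAB21 one within background. The heat difference in N22 minus that in IR64 was -0.95 ± 0.22 (SE) for VP1 and -0.91 ± 0.15 for EM, where the IR64 part was at background. It was -3.82 ± 0.28 and -3.23 ± 0.23 for the specific and shared RAB21 probe sets, and -2.89 ± 0.25 for LEA19. The IR64 part of the specific RAB21 value was also at background, as was the IR64 control group of LEA19.

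In N22 the specific RAB21 probe set had the widest gap between heat and control. Leaving out each array in turn, its difference ranged from -2.94 to -2.71, and that of the shared probe set from -1.79 to -1.67. VP1 (-1.14 to -0.90), LEA19 (-1.04 to -0.79) and EM (-0.87 to -0.76) formed a narrower band in which neighbours lay within each other's SE. The ranges of both RAB21 probe sets thus lay apart from those of the other genes, which ran into each other. No test was made of this order. In IR64 the difference of the shared RAB21 probe set ranged from 1.34 to 1.64. The LEA19 control group there was at background, and with levels raised to 4.20 its difference was 1.56, inside that range.

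The gap between cultivars was narrower under heat for all 5 probe sets. IR64 levels at background give only a lower bound, so levels under 4.20 were raised to it for this comparison. N22 minus IR64 then went from 3.04 in control to 0.23 under heat for the specific RAB21 probe set, and from 4.75 to 1.54 for the shared one. LEA19 went from 6.01 to 3.56. VP1 went from 5.79 to 4.77 and EM from 7.89 to 7.07. For the shared RAB21 probe set and LEA19, IR64 was higher and N22 lower under heat, while for VP1, EM and the specific RAB21 probe set only the N22 side lay above background.

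Group ranges often failed to overlap on these arrays. Among all kept probe sets, all N22 values exceeded all IR64 values for 36.9% in control and 32.2% under heat, all heated values lay below control for 31.3% in N22, and all heated values lay above control for 27.5% in IR64. Above background on all 6 N22 arrays and at or under it on all 6 IR64 arrays, as VP1, EM and the specific RAB21 probe set were, lay 894 of the 29803. A call up by heat in IR64 and down by heat in N22 was made for 1979. The genes were chosen on these contrasts, so nothing is read from their place in those classes. Calls come from a linear model in limma fitted to all kept probe sets, with p-values adjusted over the 29803 of them (Benjamini-Hochberg) and a two-sided threshold of 0.05.

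Other LEA and dehydrin genes were taken from a list of names, of which 6 were in the gene table and 5 had a kept probe set. In control, 2 of the 5 were called higher and 1 lower in N22, where 70.6% of all kept probe sets were called, 35.1% higher and 35.6% lower. RAB25 (LOC4326935) was at background on all IR64 arrays and had a mean of 9.67 ± 0.15 (SD, n = 3) in N22 control, at least 44.1-fold higher (adjusted p = 1.33e-12). RAB16B (LOC4350453), a dehydrin gene of the RAB16 group, was at background in IR64 and at 6.27 ± 0.22 in N22 control, at least 4.19-fold higher (adjusted p = 1.98e-09). DHN1 (LOC4330265), another dehydrin gene, ran against RAB25 and RAB16B. It was bright in IR64, at 11.05 ± 0.14, and lower by 2.03 ± 0.09 (SE) in N22 (adjusted p = 5.79e-09). RAB16C and RAB16D were not called. The median difference over the 5 was 0.23, against 0.00 over all kept probe sets.

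With heat in N22, 2 of the 5 LEA and dehydrin genes fell, 1 rose and 2 were not called, where 51.7% of all kept probe sets were called, 23.9% up and 27.8% down. RAB16B fell by 1.63 ± 0.15 (SE, adjusted p = 5.8e-06), its arrays reading 6.02, 6.37 and 6.42 in control and 4.95, 4.32 and 4.64 under heat. RAB25 fell by 0.59 ± 0.10 (adjusted p = 0.000531). DHN1 rose by 0.72 ± 0.09 (adjusted p = 6.08e-05). The median over the list was 0.40, higher than 0 although more members fell; RAB16C and RAB16D, not called and mostly at background, had differences of 0.40 and 0.42. The median of all kept probe sets was -0.01.

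With heat in IR64, 2 of the 5 rose and none fell, where 51.8% of all kept probe sets were called, 24.2% up and 27.5% down. DHN1 rose by 0.47 ± 0.09 (SE, adjusted p = 0.00106). The other call was RAB25, at 0.41 ± 0.10 (adjusted p = 0.00544), but all 6 of its IR64 values lay at background. RAB16B was at background on all 6 arrays and not called (adjusted p = 0.889). Between heated panicles, 3 of the 5 were called higher in N22 and 1 lower, where 63.1% of all kept probe sets were called, 29.6% higher and 33.5% lower. The third of them, RAB16D, had 1 of 3 heated N22 arrays above background (adjusted p = 0.0497), and its call was lost under quantile normalisation and median centring.

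RAB16B, RAB16C, RAB16D and RAB21 lie close together in the gene order of the assembly ASM3414082v1, with RAB16B directly beside RAB21. These genes are similar in sequence, and how far their probe sets cross-react was not tested. Their values differed all the same: RAB21 and RAB16B were above background in N22 control and lower under heat, the latter by 3.10-fold, while RAB16C was at background on all 12 arrays and RAB16D on 11 of them.

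**Figure D2:**
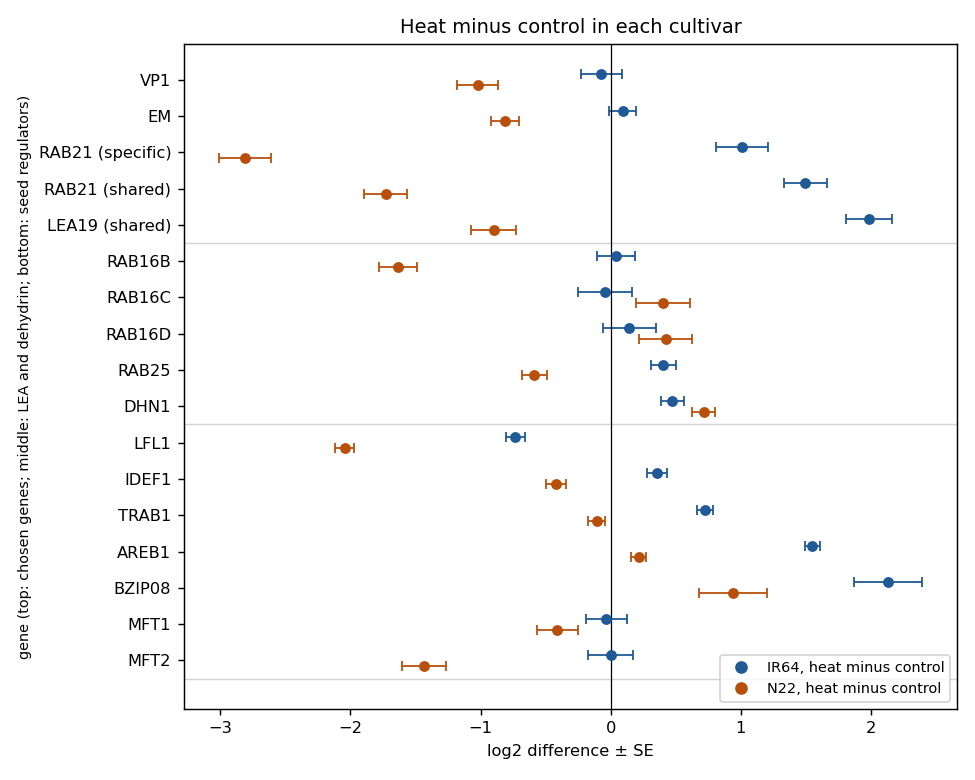
Log2 difference between heat and control (horizontal axis, ± SE of the fit, 3 arrays per group) in IR64 (blue) and N22 (orange) for the 4 chosen genes, the other LEA and dehydrin genes and the seed regulator genes. RAB21 and LEA19 lie to the right of 0 in IR64 and to the left in N22, while DHN1 lies to the right in both.

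Regulators of seed maturation and of ABA-responsive transcription formed a list of 7 genes, all kept. In control 5 were called higher in N22 and 1 lower, with a median difference of 0.78, where 35.1% of all kept probe sets were called higher and 35.6% lower. LFL1 (LOC4325939), a B3 factor named for its likeness to Arabidopsis LEC2 and FUSCA3, had VP1's pattern: background on all IR64 arrays and 8.36, 8.48 and 8.496 in N22 control, at least 18.9-fold higher (adjusted p = 2.71e-12). MFT1 (LOC4341107), a relative of the Arabidopsis seed germination regulator MOTHER OF FT AND TFL1, was above background in IR64 and higher in N22 control by 4.98 ± 0.16 (SE, adjusted p = 5.3e-10). MFT2 was at background in IR64 and at least 2.39-fold higher in N22 control (adjusted p = 3.66e-07). BZIP08 (LOC9266109), a bZIP transcription factor gene, was the gene called lower (-1.15 ± 0.26, adjusted p = 0.00258), with both groups at background.

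With heat in N22, 3 of these 7 regulators fell and 2 rose, for a median of -0.41, and median centring turned that to 5 down and 1 up. Of all kept probe sets 51.7% were called there, 23.9% up and 27.8% down, so the share called among the regulators is not read as a result. LFL1 fell by 2.04 ± 0.07 (SE, adjusted p = 8.68e-09) to 6.32, 6.35 and 6.53, a larger difference than that of VP1. MFT2 fell by 1.43 ± 0.17 (adjusted p = 4.82e-05), with 2 of its 3 heated arrays at background, and IDEF1, a B3 factor gene, by 0.42 ± 0.08 (adjusted p = 0.000919). MFT1 had a difference of -0.41 ± 0.16 that missed the threshold (adjusted p = 0.0517). The rises were AREB1 (LOC4330838), a bZIP factor of ABA signalling, by 0.22 ± 0.06 (adjusted p = 0.00845), a call lost under median centring, and BZIP08, by 0.94 ± 0.26 (adjusted p = 0.0119) within background.

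With heat in IR64, where VP1 was at background, 4 of the 7 regulators rose and 1 fell, for a median of 0.36, where 24.2% of all kept probe sets rose and 27.5% fell. BZIP08 went from background to 5.30, 6.21 and 6.36, a rise of at least 3.38-fold (adjusted p = 5.82e-05). AREB1 rose by 1.55 ± 0.06 (SE, adjusted p = 7.69e-09). TRAB1, a bZIP factor known to bind VP1, rose by 0.73 ± 0.06 (adjusted p = 5.21e-06) and was not called in N22 (-0.11 ± 0.06, adjusted p = 0.203). The gene that fell, LFL1, was at background in both IR64 groups. The heat effect was lower in N22 than in IR64 for 6 of the 7 by the test of the difference, where 55.4% of all kept probe sets were called, 29.3% higher and 26.1% lower, and MFT1 was the exception (adjusted p = 0.179).

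The genes that make, break down or sense ABA had mixed directions. Of 7 kept genes of synthesis and breakdown (of 9 listed), 6 were called lower in N22 control and 1 higher, with a median of -2.39, against 35.6% and 35.1% of all kept probe sets. PSY2 (LOC4352846) and PSY1 (LOC4342137), phytoene synthases of the carotenoid pathway that feeds ABA synthesis, were lower, with differences of -3.44 ± 0.18 (SE, adjusted p = 2.3e-08) and -3.25 ± 0.13 (adjusted p = 3.62e-09); a dimmer PSY1 probe set was not called (-0.11 ± 0.19, adjusted p = 0.636). ABA8OX2 (LOC4345810), a hydroxylase that inactivates ABA, was the gene called higher, by 2.42 ± 0.06 (adjusted p = 1.44e-10), and it fell with heat in N22 by 0.54 ± 0.06 (adjusted p = 4.79e-05) and rose in IR64 by 0.46 ± 0.06 (adjusted p = 0.000137). With heat, 3 of the 7 rose and 2 fell in IR64 (24.2% and 27.5% of all kept probe sets), and 4 rose and 1 fell in N22 (23.9% and 27.8%). The falls in IR64 were those of PSY2 (-2.38 ± 0.18, adjusted p = 1.4e-06) and ZEP (-1.57 ± 0.12, adjusted p = 1.9e-06). In N22, PSY1 rose by 1.87 ± 0.13 (adjusted p = 1.06e-06). PSY3, the phytoene synthase known in cereals for its response to stress, rose in both cultivars, by 1.39 ± 0.20 in IR64 (adjusted p = 0.000168) and 2.03 ± 0.20 in N22 (adjusted p = 1.12e-05). ABA itself was not measured.

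Of 18 kept genes of core ABA signalling (of 20 listed), 9 were higher and 9 lower in N22 control, where 35.1% and 35.6% of all kept probe sets were. Highest were SAPK7 (1.79 ± 0.09, SE, adjusted p = 2.16e-08) and SAPK10 (1.69 ± 0.19, adjusted p = 1.27e-05). Lowest were SAPK5 (-3.96 ± 0.08, adjusted p = 2.53e-11) and SAPK2 (-2.59 ± 0.09, adjusted p = 1.56e-09). With heat in IR64, 10 rose, 5 fell and 3 were not called, for a median of 0.30, where 24.2% of all kept probe sets rose and 27.5% fell. The kinase gene SAPK9 rose most among them, by 2.36 ± 0.08 (SE, adjusted p = 6.53e-09), and the phosphatase gene PP2C08 by 1.65 ± 0.06 (adjusted p = 9.1e-09), in the group where LEA19 and the shared RAB21 probe set were also higher. The largest falls in that group were those of SAPK2 (-1.19 ± 0.09, adjusted p = 2.27e-06) and SAPK3 (-0.55 ± 0.13, adjusted p = 0.00471). With heat in N22, 7 rose, 4 fell and 7 were not called (23.9% up and 27.8% down over all kept probe sets), a split that turned to 4 up and 7 down under median centring. The largest rises there were those of SAPK5 (0.97 ± 0.08, adjusted p = 3.71e-06) and PP2C68 (0.82 ± 0.17, adjusted p = 0.00252), the latter from background. SAPK7 and PP2C06 had the largest falls, by 0.70 ± 0.09 (adjusted p = 1e-04) and 0.47 ± 0.07 (adjusted p = 0.000281).

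Markers of filling endosperm moved with the cultivar difference of the chosen genes. Each of the 10 kept marker genes (glutelins, seed allergens and starch enzymes) was read first from its brightest probe set. By that reading all 10 were above background on every N22 array in both groups and were called higher in N22 in control, with a median of 11.13, where 35.1% of all kept probe sets were called higher. In IR64, 7 of the 10 were at background on all arrays of both groups, namely the 6 glutelin and albumin genes GLUA1, GLUA2, GLUA3, GLUB5, GLUC and RAG2 and the seed allergen gene RA17. A dimmer GLUA2 probe set went against this: it read 5.51 and 5.52 in IR64 control and heat and was lower in N22 control by 0.79 ± 0.09 (SE, adjusted p = 9.9e-06). Over all their 24 kept probe sets, 23 were higher in N22 control and 1 lower, and 6 of the 10 genes were at background throughout in IR64. The log2 of the summed level of the 10 brightest probe sets ranged from 11.4 to 11.6 in IR64 control, from 10.9 to 11.1 in IR64 heat, from 17.9 to 18.0 in N22 control and from 17.8 to 17.9 in N22 heat. The glutelin gene GLUA1 went from 2.30 in IR64 control to 14.07 in N22 control, at least 936-fold. The part of such tissue in the cultivar difference of VP1, EM, RAB21 and LEA19 was not tested.

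With heat in N22, where the chosen genes were lower, the endosperm markers divided, and the count turned on the probe set read. By the brightest probe sets 3 of the 10 rose, GLUA3 by 0.36 ± 0.07 (SE), GLUB5 by 0.57 ± 0.09 and GLUC by 0.20 ± 0.04. Another 3 fell, RA17 by 2.38 ± 0.12, the starch branching enzyme SBE1 by 0.91 ± 0.12 and the ADP-glucose pyrophosphorylase AGPS2 by 1.003 ± 0.08, and 4 were not called. Over all 24 kept probe sets 3 were called up and 14 down, where 23.9% and 27.8% of all kept probe sets were. These are counts of probe sets and not of genes. The 14 falls came only from SBE1, GBSSI, RAG2, RA17 and AGPS2, with several probe sets each for SBE1, GBSSI and RAG2. The falls took in genes not called by their brightest probe set: the starch synthase GBSSI went from 14.31 to 12.99 on a dimmer one (-1.32 ± 0.18, adjusted p = 0.000128) and the albumin gene RAG2 from 14.27 to 13.53 (-0.74 ± 0.08, adjusted p = 2.1e-05). The rises were all of glutelin genes. Under median centring the brightest probe sets gave 1 up and 4 down. The part of endosperm in the lower levels of the chosen genes was not tested. In IR64, LEA19 and the shared RAB21 probe set were higher under heat. The endosperm markers there gave 0 rises and 4 falls by their brightest probe sets, where 24.2% of all kept probe sets rose and 27.5% fell. Of the 10 markers, 7 were at background in IR64, and GLUA2, for example, went from 3.77 to 2.78 within it.

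**Figure D3:**
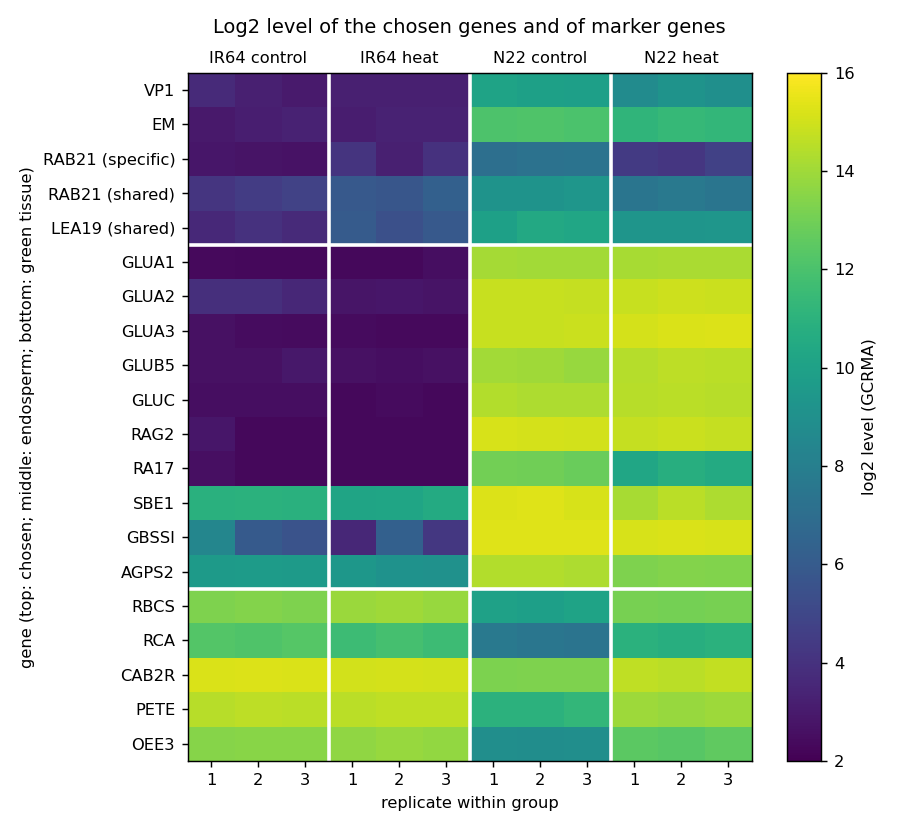
Log2 level (colour) of the 4 chosen genes, the 10 endosperm markers and the 5 green tissue markers (rows, each marker at its brightest probe set) on each of the 12 arrays (columns, 3 per group). The endosperm rows are bright on all N22 arrays, 7 of them are dark on all IR64 arrays, and the green tissue rows are dimmest in N22 control.

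Green tissue markers ran the other way. All 5 (RBCS, RCA, CAB2R, PETE and OEE3) were dimmer in N22 than in IR64 controls, with a median of -3.45, and all 5 rose with heat in N22, with a median of 3.09, by their brightest probe sets. Of their 11 kept probe sets, 10 were lower in N22 control and the same number rose with heat in N22, and 1 for RBCS was called in neither. Over all kept probe sets, 35.6% were called lower in N22 control and 23.9% rose with heat in N22. The log2 of the summed level of the 5 green tissue markers ranged from 13.7 to 13.8 in N22 control, from 15.7 to 15.9 in N22 heat and from 16.4 to 16.5 in IR64 control. Of 17 floral organ genes (MADS-box genes and DL), 14 were lower in N22 control, where 35.6% of all kept probe sets were. With heat in N22, 12 of them rose and 1 fell, where 23.9% of all kept probe sets rose and 27.8% fell. DL was at background in every group. The part of green and floral tissue in the lower levels of the chosen genes under heat in N22 was not tested.

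Some anther markers moved in the same direction as the chosen genes, and others did not or lay at background. Of 8 kept genes of the tapetum and pollen wall, 4 were higher and 1 lower in N22 control (35.1% and 35.6% of all kept probe sets), and 4 fell and 0 rose with heat in N22 (27.8% and 23.9%). The falls were 1.18 ± 0.07 (SE, adjusted p = 2.62e-07) for MTR1, 1.02 ± 0.09 (adjusted p = 3.83e-06) for MSP1, a receptor kinase gene of early anther development, and 0.78 ± 0.09 (adjusted p = 3.83e-05) for GAMYB, a factor known from both tapetum and seed aleurone. The other was TDL1A, with N22 levels at background. EAT1 was not called with heat in N22 (0.36 ± 0.39, adjusted p = 0.501). Of the 8 genes, 5 were at background on all arrays of each IR64 group and 4 on all arrays of each N22 group. TDR, OsC6 and RAFTIN1 had probe sets that did not pass the filter. The log2 of the summed level ranged from 9.44 to 9.50 in IR64 control, from 9.24 to 9.39 in IR64 heat, from 11.03 to 11.08 in N22 control and from 10.04 to 10.10 in N22 heat. Of 2 kept late pollen genes, SUT1 and EXPB10, both were called lower in N22 control, SUT1 by only 0.26 ± 0.07 (adjusted p = 0.00946). Under median centring only 1 of the 2 was called lower there. With heat in N22, SUT1 fell by 0.85 ± 0.07 (adjusted p = 4.84e-06) and EXPB10 rose from background to 6.13 (adjusted p = 2.33e-08). The part of anther tissue in the values of VP1, EM, RAB21 and LEA19 was not tested.

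**Figure D4:**
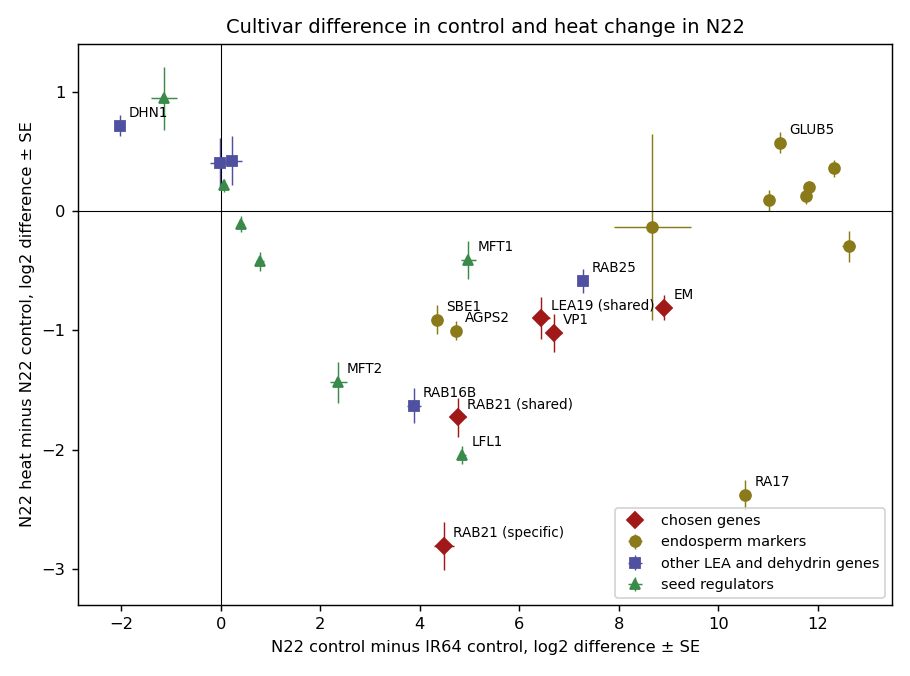
Log2 difference between N22 and IR64 controls (horizontal axis) against the log2 difference between N22 heat and N22 control (vertical axis), both ± SE, for the chosen genes, endosperm markers, other LEA and dehydrin genes and seed regulators. The 5 chosen probe sets lie to the right of 0 and below it, with RAB16B, RAB25, LFL1, SBE1, AGPS2 and RA17, while GLUB5 lies above 0.

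Control readings used to judge RNA quality also differed between some groups. The 3' minus 5' difference of the GAPDH control probe sets was 4.79 ± 0.18 (SD, n = 3) in IR64 control, 7.93 ± 0.16 in IR64 heat, 8.59 ± 0.14 in N22 control and 8.81 ± 0.17 in N22 heat. IR64 control thus stood below the other groups, without overlap (two-sided exact permutation p = 0.1, the smallest that 3 against 3 arrays allow). Between the N22 groups, where all 5 chosen probe sets were lower under heat, the difference was 0.23 (exact permutation p = 0.2). The ubiquitin control probe sets gave 1.45 ± 0.03 (SD, n = 3) in IR64 control, 2.15 ± 0.01 in IR64 heat, 2.21 ± 0.07 in N22 control and 2.04 ± 0.05 in N22 heat. Here the N22 groups did not overlap, with heat minus control at -0.17 (exact permutation p = 0.1), the opposite direction to GAPDH. The part of RNA quality in the values of the chosen genes was not tested.

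Across the 12 arrays, VP1 correlated with EM at r = 0.996, with LEA19 at 0.956, and with the specific and shared RAB21 probe sets at 0.827 and 0.912. These values are descriptions, since the 12 points are 4 groups of 3 and mostly reflect the gap between cultivars: 586 of 29776 other kept probe sets exceeded r = 0.99 and 2408 exceeded 0.95. Among the listed genes, RA17 reached 0.998, MFT1 0.997, RAB25 0.995 and LFL1 0.969, and DHN1 was at -0.975. Among probe sets whose symbol in the gene table is a gene name and not a LOC number, which leaves out RA17, MFT1 and RAB25, the 6 with the highest correlation with VP1 were AGPS2 (0.996), the calcium-dependent kinase gene CPK23 (0.991), the chitin receptor gene CEBIP (0.987), the peroxidase gene PRX112 (0.973), MAGO2 (0.967) and CSB (0.965). Of these, AGPS2 was also an endosperm marker. Lower means under heat in N22, as for VP1, were read for AGPS2 (14.35 to 13.35), CEBIP (9.82 to 8.91), MAGO2 (11.67 to 11.21) and CPK23 (14.75 to 14.65). PRX112 went from 6.81 to 7.11 and CSB from 7.92 to 8.14.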

How the data were processed

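Total RNA of 12 rice panicle samples was hybridised to Affymetrix arrays. The authors deposited 1 table of log2 values made with GCRMA, per the submitters' processing notes; the sources used here give neither its version nor its settings. All its columns were used, values ran from 2.29 to 15.8, and 38.6% sat at the floor. Raw scanner files were not used here. The 123 AFFX control probe sets were left out, and a probe set was kept where it exceeded the table median of 2.35 on at least 3 arrays, which left 29803 probe sets. limma 3.58.1 in R 4.3.3 fitted the 4 group means with eBayes (8 residual and 1.79 prior degrees of freedom), and the contrasts were heat in each cultivar, N22 minus IR64 in each condition, and the difference of the heat effects. SE is that of the fit. The script was tested on simulated data. Precision is limited by the number of arrays, 3 per group. Shared controls link the contrasts: each control group enters more than 1 of them.

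Probe sets were named through the array annotation (22436 with 1 gene, 95 with several and 34850 with none) and the gene table of ASM3414082v1. No coordinates or sequences are given, since the sources used here do not give the build of the array annotation. The members, the lists and the background level were chosen with earlier results of these data known. List genes were found by symbol or synonym, and a name that matched several genes was dropped. Each list gene is read from its brightest kept probe set, and markers also over all their kept probe sets, a reading added after the values were seen. Named were all probe sets of the members, up to 2 called genes with the largest rise and 2 with the largest fall per list in each heat contrast and in the control contrast, and the 6 symbols most correlated with VP1. RAB16C, RAB16D, IDEF1, TRAB1 and the markers were named beyond this rule after their values were seen. GT1 was left out of the late pollen list because it matched a glutelin gene. Replicate numbers were checked for pairing: same-numbered arrays of different groups had deviations that correlated from -0.05 to 0.10, so no pairing was used. Alternatives were another normalisation, other filters, values raised to the background level, averaging the probe sets of a gene, a replicate block and leaving out each array.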

Additional observations from a re-analysis of the deposited data

Results flagged for a closer look

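The results here are heat effects (heat minus control, log2) that differed between cultivars, each given as N22 minus IR64. For RAB21 and LEA19 every heated N22 array lay below and every heated IR64 array above its control arrays, and the difference was not tested because the genes were chosen on it: -3.82 for RAB21, -3.23 for its shared probe set and -2.89 for LEA19. The RAB21 value rests in part on IR64 levels at background. Over all kept probe sets, 55.4% were called for a difference of heat effects in either direction. A call up by heat in IR64 and down by heat in N22 was made for 6.64%.

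The list genes given next, all named by the rule above, had an interaction term in limma with an adjusted p under 0.05. Among LEA and dehydrin genes it was -0.99 for RAB25 and -1.68 for RAB16B, and among seed regulators -1.43 for MFT2, -1.34 for AREB1, -1.31 for LFL1 and -1.19 for BZIP08. In ABA synthesis and breakdown it was 2.92 for PSY2, 2.20 for ZEP, 1.47 for PSY1 and -0.999 for ABA8OX2. In ABA signalling it was -2.16 for SAPK9, -1.73 for PP2C08, -1.63 for PP2C06, -0.97 for SAPK7, 1.54 for SAPK2, 0.94 for SAPK3 and 0.67 for SAPK5. It was 0.48 for GLB, a call lost under median centring. Other list genes not named here passed as well. Over the full lists, 6 of 7 seed regulators were called, all lower, and of 18 ABA signalling genes 6 were called higher and 8 lower. Of all kept probe sets, 29.3% were called higher and 26.1% lower. IR64 levels of RAB25, RAB16B, LFL1 and MFT2 were at background throughout. N22 levels of BZIP08 were at background too.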

How the results depend on the processing

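No reported difference above background changed direction under the alternatives run. VP1 and EM in IR64, at background, took either sign. With levels raised to background, N22 minus IR64 became 5.79 (control) and 4.77 (heat) for VP1, 7.89 and 7.07 for EM, and in control 3.04 for RAB21 and 6.01 for LEA19; heat in IR64 became 0 for RAB21 and 1.56 for LEA19. Median centring moved the median of all kept probe sets by 0.11 for heat in IR64 and -0.20 for heat in N22. It gave -1.004 for EM and -1.92 for shared RAB21 with heat in N22, and 9.12 for EM and 4.69 for RAB21 in control. Among called probe sets the share that was up went from 46.8% to 56.8% (heat in IR64), from 46.2% to 29.3% (heat in N22), from 49.6% to 61.4% (N22 minus IR64, control) and from 53.0% to 32.3% (difference). AREB1 in N22 lost its call, at 0.02. The difference of heat effects for GLB lost its call too, at 0.18. By their brightest probe sets the endosperm markers with heat in N22 gave 3 up and 3 down. Over all their kept probe sets the calls were 3 up and 14 down, a reading chosen after seeing the data. The latter count is of probe sets and not of genes, with several falls each from SBE1, GBSSI and RAG2. Leaving out each array kept the N22 heat differences at -1.14 to -0.90 for VP1, -0.87 to -0.76 for EM, -2.94 to -2.71 for RAB21 and -1.04 to -0.79 for LEA19. With the replicate block, 15144 probe sets were called for heat in N22, against 15411 without, and it moved no count of calls by over 1.5 times. The cause of these shifts was not tested, except that raising levels shortens differences by construction.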
